A study of Homo sapiens with 48 samples.

Results

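The genes described here were 9 keratins, KRT20, KRT7, KRT8, KRT18, KRT19, KRT80, KRT81, KRT17 and KRT23, and the long non-coding RNA UCA1. They were measured in HK-2 cells exposed to the nephrotoxic compounds CsA, Fk, Ra or Nnm. The 10 genes were chosen by name, with values of these arrays already in view, and which values led to each name is not recorded. Differences and adjusted p-values of the members are therefore given as a description of where each gene stood in a fit across all genes. A gene was taken through array probe sets for which it was the only symbol in the platform annotation. Of the 10 genes, 8 had such a probe set, 12 in all. No probe set with the single symbol KRT17 or KRT81 was listed in the annotation used here, so these 2 genes have no value. Probe sets were kept where they exceeded a log2 value of 4 on at least 3 arrays, which left 7 members with 1 probe set each, of 11356 genes in all. KRT23 ran from 2.18 to 2.33 over the 48 arrays and did not pass, and neither did 3 further probe sets of KRT7 and 1 of KRT19.

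HK-2 is an immortalized epithelial line from the proximal tubule of a human kidney, and as 1 line it stands for no other donor or nephron segment. The 48 arrays fell into 16 groups of 3 biological replicates. Cells of the CsA set, which the labels mark lab 3, received CsA or vehicle for 12 h or 48 h. Cells of the Fk and Ra set received Fk, Ra or a shared vehicle for 12 h or 48 h. Cells of the Nnm set received Nnm at a low dose, Nnm at a high dose or a shared vehicle for 24 h or 48 h. All groups shared a medium with EGF, hydrocortisone, insulin, transferrin and selenite, and the labels name no genetic change in any of them. The compounds are called by the labels' short names, and the amounts behind the low and the high dose were not known here. Fk and Ra were set against the same vehicle arrays, as were both doses of Nnm, so these differences are not independent of each other.

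Keratins are the intermediate filament proteins of epithelial cells. Type I chains, among them KRT18, KRT19, KRT20, KRT17 and KRT23, pair with type II chains such as KRT7, KRT8, KRT80 and KRT81 to form the filament. KRT8 and KRT18 are the basic pair of simple epithelia, including the renal tubule, and are known to rise after tubular injury. KRT20 is known from gut epithelium, urothelial umbrella cells and Merkel cells. UCA1, named urothelial cancer associated 1, is a non-coding RNA that is abundant in bladder carcinoma.

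In RefSeq on GRCh38.p14 the type II genes lie together on chromosome 12, KRT80 at 52168996 to 52192014, KRT7 at 52233243 to 52255853 and KRT8 at 52897191 to 52949860. KRT18 follows at 52948855 to 52952906 on the same chromosome, apart from the other type I genes. KRT20 lies on chromosome 17 at 40875889 to 40885242 and KRT19 at 41523617 to 41528308. UCA1 lies on chromosome 19 at 15828947 to 15836321, away from both clusters.

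Of the 10 genes, 2 had a promoter window in the RefSeq table, of 250 bases before and 50 after the start that the table gives. That start is the 5′ end of the KRT20 gene, while for KRT8 it is an internal one, 23391 bases downstream of the gene's 5′ end. The window of KRT20, the keratin with the widest range of values here, and that of KRT8, whose values moved much less, are shown side by side. Capitals mark the transcribed 50 bases, and both windows are read from the minus strand of GRCh38.p14, chr17:40885193-40885492 for KRT20 and chr12:52926420-52926719 for KRT8.
KRT20: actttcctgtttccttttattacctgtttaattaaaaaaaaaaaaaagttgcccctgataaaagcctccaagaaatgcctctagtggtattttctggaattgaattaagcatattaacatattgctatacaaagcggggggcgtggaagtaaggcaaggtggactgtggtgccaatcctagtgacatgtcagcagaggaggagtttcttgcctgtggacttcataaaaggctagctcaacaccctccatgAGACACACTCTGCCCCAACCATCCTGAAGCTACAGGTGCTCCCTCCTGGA
KRT8: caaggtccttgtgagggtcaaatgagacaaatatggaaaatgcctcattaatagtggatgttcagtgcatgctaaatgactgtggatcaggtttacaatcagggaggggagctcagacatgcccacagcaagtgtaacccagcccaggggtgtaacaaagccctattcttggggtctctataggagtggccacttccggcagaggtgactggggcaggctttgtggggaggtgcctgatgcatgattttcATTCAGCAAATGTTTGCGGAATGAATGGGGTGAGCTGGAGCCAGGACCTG

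Both strands of these windows were searched for 7 motifs: TATAAA (the core promoter box), TGANTCA (AP-1), GGGCGG (GC box), CACGTG (E-box), GGAATG (TEAD), TTGCNNAA (C/EBP) and TGATGNAA (an ATF4 and C/EBP composite). The KRT20 window held none of these letters. The KRT8 window held GGAATG at base 268 and TTGCNNAA at bases 252 and 264, counted from the window's first base, all within the capitals, the last of these overlapping with the TEAD letters. Over all 35116 windows, 14.0% held the TEAD letters and 10.5% those of C/EBP. The core promoter box was found in 11.5% of windows, those of AP-1 in 7.7%, of the GC box in 45.0%, of the E-box in 7.3% and of the composite in 3.6%. A match is a run of letters and not a bound site.

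Values were log2 expression estimates, so a step of 1 is a doubling, and levels of different probe sets were not compared. The general epithelial marker EPCAM was bright in every group, with group means of 12.67 to 13.40, and CDH1 ran from 5.70 to 8.36. Of the 12 proximal tubule markers with a probe set, 3 passed the filter, GGT1, DPP4 and PAX8. Group means of GGT1 were only 3.85 to 4.24, near the log2 4 of the filter. The defining proximal tubule genes LRP2, CUBN, AQP1 and SLC34A1 stayed below it, so the labelled segment rested on few of its markers. All 5 urothelial markers and all 3 leukocyte markers with a probe set were below the filter, while 2 of 7 collecting duct, 3 of 6 fibroblast and 1 of 4 endothelial markers passed. The arrays with the lowest upper quartiles over all probe sets were Ra 48 h replicate 2 (6.20) and Fk 12 h replicate 3 (6.85). Member differences of Ra at 48 h against vehicle are given without replicate 2 as well. For called genes of the lists, apart from KLF5, the arrays whose removal lost the call are named. Differences of Fk against Ra, of genes beside members and of cell type markers include Ra replicate 2. No member was called for Fk at 12 h with or without replicate 3. Full separation of 3 treated from 3 vehicle arrays, in either direction, was common. Of 11356 genes it was found in 1618 for CsA, 1144 for Fk and 2528 for Ra at 48 h. For Nnm it was found in 4314 and 3974 genes at the low dose for 24 h and 48 h. At the high dose it was found in 4315 and 4094. In RNA from a whole well, fewer cells with a transcript and less of it per cell cannot be told apart.

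KRT20 was the keratin whose level varied most, and its 2 lowest group means were after Nnm for 24 h. Its group means spanned 4.22 log2 units (18.7-fold), from 8.74 ± 0.51 (SD, n = 3) in the 48 h vehicle cells of the Nnm set to 4.52 ± 1.62 after the high dose of Nnm for 24 h. That lowest mean holds a value of 2.85, and 2 other KRT20 values lay under log2 4 (3.83 at the low dose of Nnm for 24 h and 3.42 after Ra for 48 h), where the probe set gives little order, so the fold sizes that rest on them are uncertain. Over the 10 treatments its mean was below that of the vehicle in 9. It passed the test as lower in 3, all with Nnm.

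In the Nnm set at 48 h, vehicle replicates 1, 2 and 3 had KRT20 at 8.15, 9.10 and 8.97. Cells given the low dose had 4.83, 5.87 and 4.43, and those given the high dose had 4.86, 5.62 and 5.23. All 6 treated values lay more than 2 log2 units under the lowest vehicle value. KRT20 fell by 3.70 ± 0.79 at the low dose (± here and below is the SE of a difference from limma; 13.0-fold, adjusted p = 0.00387 over all genes). At the high dose it fell by 3.51 ± 0.79 (11.4-fold, limma adjusted p = 0.00233). Both calls held in all 8 alternative settings and with each of the 48 arrays left out in turn.

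At 24 h the vehicle values were 6.70, 7.93 and 6.83, those of the low dose 3.83, 6.23 and 4.63, and those of the high dose 2.85, 6.07 and 4.64. Treated and vehicle values did not overlap at either dose, and replicate 2 was the highest in each of the 3 groups. The high dose lowered KRT20 by 2.64 ± 0.79 (6.22-fold, limma adjusted p = 0.0147). This call was lost without high-dose replicate 1 (adjusted p = 0.177) or without vehicle replicate 2 (adjusted p = 0.0692). The difference at the low dose was -2.26 ± 0.79 and was not called (limma adjusted p = 0.0667). With the replicate number as a block, which the Nnm arrays bear as pairs, it was called (limma adjusted p = 0.00906).

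Between the doses of Nnm, KRT20 differed by -0.38 ± 0.79 at 24 h and 0.19 ± 0.79 at 48 h (high minus low). Both differences were smaller than their SE. Of all genes, 0.00881% were called between the doses at 24 h and 0.0176% at 48 h.

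In the other sets KRT20 was lower at 48 h than in vehicle on every array, without passing the test. Vehicle cells of the CsA set had 8.23, 8.03 and 8.89 at 48 h, against 7.18, 6.73 and 6.84 with CsA, a difference of -1.46 ± 0.79 (limma adjusted p = 0.487). Vehicle cells of the Fk and Ra set had 6.89, 6.54 and 7.59 at 48 h. With Fk the values were 6.01, 6.32 and 4.74 (difference -1.32 ± 0.79, limma adjusted p = 1). With Ra they were 5.97, 5.68 and 3.42 (difference -1.98 ± 0.79, limma adjusted p = 0.0729). In both treated groups replicate 3 was the lowest. Over all genes the median difference of Ra at 48 h was -0.178. With each array centred on its median over all probe sets the KRT20 difference was -2.02 (limma adjusted p = 0.0705). Ra replicate 2 had the highest such median (3.09) but the lowest median over tested genes (7.47). Centring therefore does not lift that array, and centred values of Ra here and below cannot check for its shift. After centring the median difference of all genes was -0.211. Without Ra replicate 2 the KRT20 difference was -2.31 (adjusted p = 0.103).

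At 12 h KRT20 showed no such gap. Vehicle cells of the CsA set had 6.80, 8.23 and 5.26 and CsA cells 7.41, 8.40 and 4.71, with the order of the replicates the same in both. Vehicle cells of the Fk and Ra set had 5.77, 5.63 and 4.86, Fk cells 5.19, 5.78 and 4.72, and Ra cells 5.99, 5.85 and 4.10. The differences were 0.07 for CsA, -0.19 for Fk and -0.11 for Ra, each ± 0.79.

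UCA1 was the member whose group means spread most, and it too was lowest after Nnm. They spanned 5.62 log2 units (49.0-fold), from 9.14 ± 0.15 (SD, n = 3) in the 48 h vehicle cells of the Fk and Ra set to 3.53 ± 0.29 after the high dose of Nnm for 48 h, a mean under log2 4. Over single arrays the ranges of KRT20 and UCA1 were 6.26 and 6.07. The mean was below that of the vehicle in all 10 treatments. It passed the test as lower in 3, again all with Nnm.

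In the Nnm set at 48 h, vehicle replicates 1, 2 and 3 had UCA1 at 6.24, 7.00 and 8.34. The low dose had 3.40, 3.58 and 4.41, and the high dose 3.19, 3.69 and 3.70. Every treated value lay below every vehicle value, and most treated values lay under log2 4, where the probe set gives little order, so the size of the fall is uncertain. UCA1 fell by 3.39 ± 0.55 at the low dose (10.5-fold, limma adjusted p = 0.000201). At the high dose it fell by 3.66 ± 0.55 (12.7-fold, limma adjusted p = 2.95e-05). Both calls held in the same 8 settings and with each of the 48 arrays left out.

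At 24 h vehicle cells had 6.66, 7.03 and 7.90, low-dose cells 4.28, 4.75 and 6.31, and high-dose cells 5.56, 4.85 and 7.21. Replicate 3 was the highest of each group, the low-dose values were all below vehicle, and the high-dose values overlapped with it. UCA1 fell by 2.08 ± 0.55 at the low dose (4.23-fold, limma adjusted p = 0.0161). That call was lost without low-dose replicate 1 (adjusted p = 0.143), without vehicle replicate 3 (adjusted p = 0.131), or with only the arrays of the Nnm set in the fit (adjusted p = 0.0573). The high-dose difference was -1.32 ± 0.55 (limma adjusted p = 0.0751) and was called with the replicate block (adjusted p = 0.00958). Between doses UCA1 differed by 0.76 ± 0.55 at 24 h and -0.27 ± 0.55 at 48 h (high minus low), neither called.

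From 24 h to 48 h the effect of the high dose on UCA1 changed by -2.34 ± 0.77, which was not called (limma adjusted p = 0.690). The same change at the low dose was -1.31 ± 0.77. No member was called in any comparison of a later with an earlier effect. Of all genes, 0% were called there for CsA (327 at an unadjusted p under 0.05), 0% for Fk (337), 3.62% for Ra, 0% for the low dose of Nnm (219) and 0.00881% for the high dose.

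Fk and Ra cells had UCA1 means below their vehicle at 48 h, and CsA cells did not stand apart. Vehicle cells of the Fk and Ra set had 8.97, 9.19 and 9.27 at 48 h, close together and above every Fk and Ra value. Fk cells had 7.34, 7.97 and 8.30 (difference -1.27 ± 0.55, limma adjusted p = 1). Ra cells had 8.91, 7.40 and 6.90 (difference -1.41 ± 0.55, limma adjusted p = 0.0658; centred arrays -1.44, adjusted p = 0.0602; without replicate 2, -1.24, adjusted p = 0.224). CsA cells had 5.91, 5.58 and 6.56 at 48 h, inside the range of their vehicle at 6.41, 4.99 and 6.88.

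At 12 h all UCA1 differences were smaller than at 48 h in the Fk and Ra set. Vehicle cells had 8.46, 7.99 and 7.60, Fk cells 7.32, 7.33 and 7.64 (difference -0.59 ± 0.55), and Ra cells 7.93, 7.70 and 6.90 (difference -0.51 ± 0.55). In the CsA set vehicle cells had 8.01, 8.05 and 8.17 and CsA cells 7.58, 7.62 and 8.23 (difference -0.27 ± 0.55). Treated and vehicle values overlapped in all 3 comparisons.

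**Figure D1:**
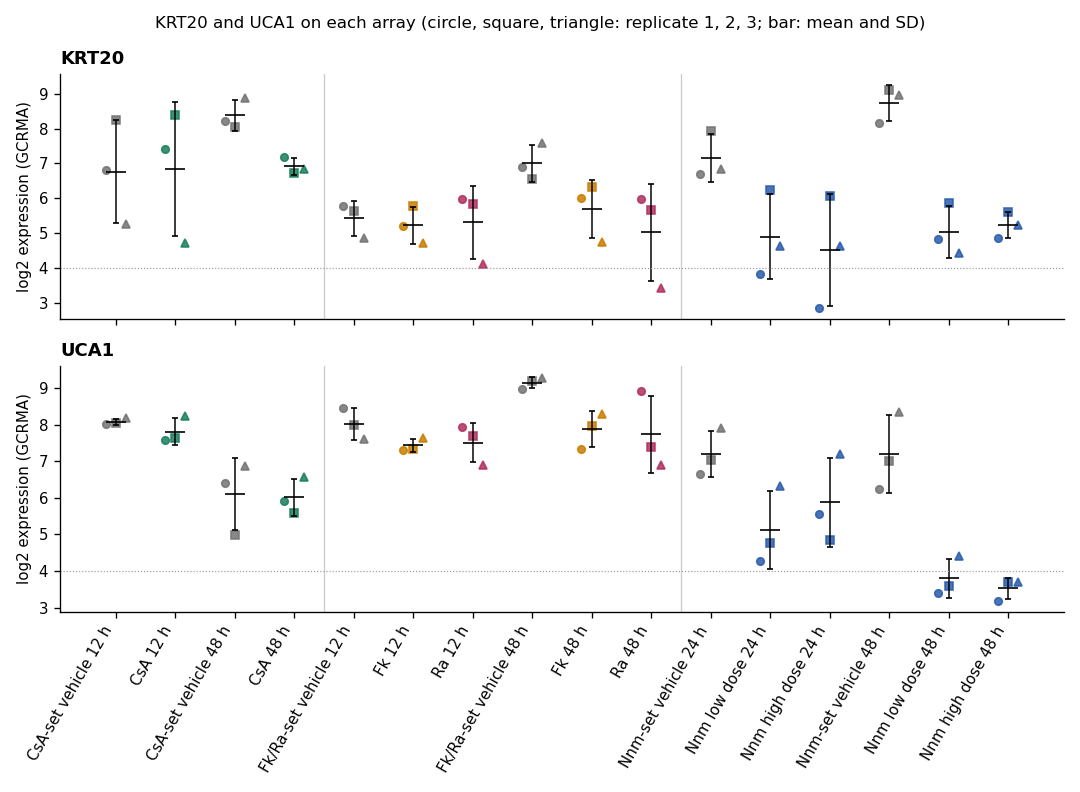
Log2 expression of KRT20 (top) and UCA1 (bottom) on each of the 48 arrays, by group; symbols are replicates 1, 2 and 3, the black bar is the mean with SD (n = 3), grey lines part the 3 sets and the dotted line is log2 4. The 48 h Nnm groups sit under their vehicle in both panels, at means of 5.04 and 5.23 against 8.74 for KRT20 and of 3.80 and 3.53 against 7.19 for UCA1.

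Over the 70 pairs of a member and a treatment, 6 were called, all lower, and all with Nnm. Of all genes, 0% were called for CsA at 12 h (36 at an unadjusted p under 0.05, no member among them) and 1.02% at 48 h. For Fk 0% were called at 12 h (712 unadjusted) and 0% at 48 h (311 unadjusted, 1 member among them), and for Ra 0.0704% at 12 h and 18.5% at 48 h. The calls of Ra at 48 h were 337 higher and 1769 lower. With both arrays of low upper quartile left out they were 557 higher and 510 lower. For Nnm 8.29% of all genes were called at the low dose for 24 h, 5.22% at the low dose for 48 h, 23.1% at the high dose for 24 h and 16.8% at the high dose for 48 h. Members called were UCA1 at the low dose for 24 h, KRT20 at the high dose for 24 h, and both at either dose for 48 h. With values of these arrays in view when the genes were named, nothing is read from those counts against the background.

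**Figure D2:**
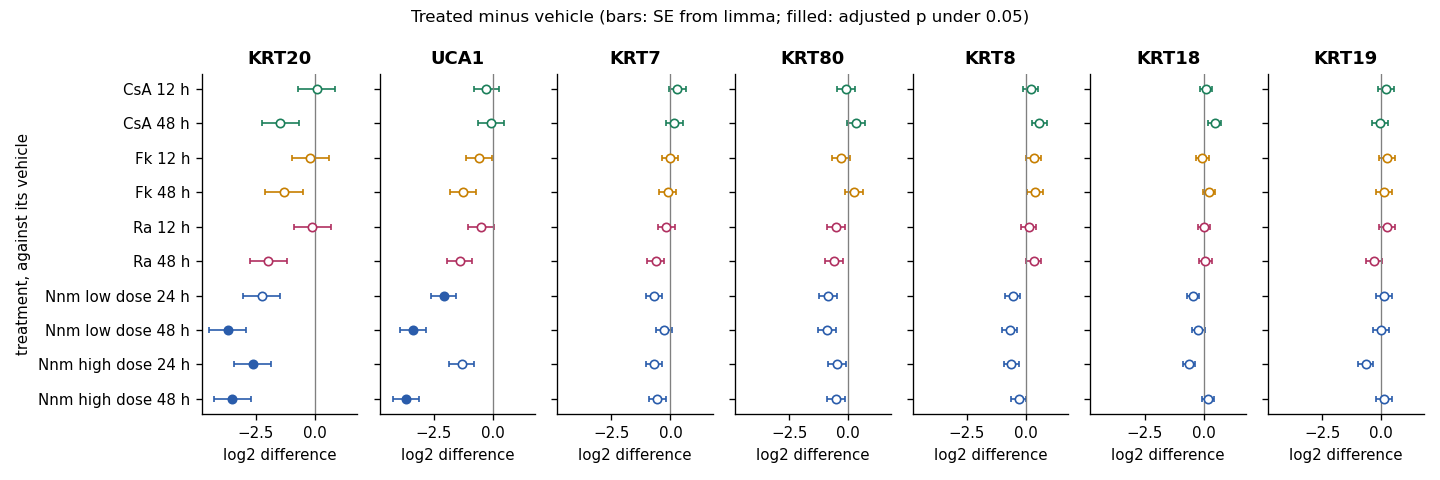
Difference of each treated group from its vehicle (x axis, log2) for the 7 measured members; points are limma estimates over 3 against 3 arrays, bars are SE, and filled points have an adjusted p under 0.05. The 6 filled points lie in the KRT20 and UCA1 panels, in the 4 Nnm comparisons.

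Levels of KRT20 and UCA1 can be ordered over the 16 groups, but most neighbours in that order did not differ beyond the larger of their SDs. For KRT20 the 2 highest groups were the 48 h vehicle cells of the Nnm set (8.74) and of the CsA set (8.38). A gap beyond the SD separated these from the rest, led by the 24 h vehicle of the Nnm set (7.16), and the other 14 steps were within it. For UCA1 a gap beyond the SD set the 48 h vehicle of the Fk and Ra set (9.14) above a run of 9 groups from 8.08 to 7.19. A second gap led to the 48 h vehicle of the CsA set (6.09), CsA at 48 h (6.02) and Nnm at 24 h (5.87 high, 5.12 low). A last one led to Nnm at 48 h (3.80 low, 3.53 high).

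In vehicle cells KRT20 had a higher mean at the later time in all 3 sets, while UCA1 was lower in the CsA set, higher in the Fk and Ra set and level in the Nnm set. KRT20 was higher at 48 h than at the earlier time by 1.62, 1.59 and 1.59 in the CsA, the Fk and Ra and the Nnm set, each ± 0.79. None of the 3 was called (limma adjusted p = 0.173, 0.157 and 0.831). With the replicate block, given here for the sets whose arrays pair, the CsA set passed (limma adjusted p = 0.0484), although replicate 2 there went the other way, from 8.23 to 8.03. In the Nnm set, whose arrays pair as well, neither KRT20 nor any other member was called with the block. In the Fk and Ra set and in the Nnm set every 48 h vehicle value was above every earlier one. Of 11356 genes, 5415 and 2897 had later vehicle values wholly above or wholly below the earlier ones in these sets.

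UCA1 in vehicle cells of the CsA set fell by 1.98 ± 0.55 from 12 h to 48 h (3.95-fold, limma adjusted p = 0.0136). The call was lost without the 12 h replicate 3 (adjusted p = 0.0539) or the 48 h replicate 2 (adjusted p = 0.141). In the Fk and Ra set UCA1 was 1.13 ± 0.55 higher at 48 h (limma adjusted p = 0.144), with all 48 h values above all 12 h values. In the Nnm set it differed by -0.01 ± 0.55 between 24 h and 48 h. The change in the Fk and Ra set minus that in the CsA set was 3.11 ± 0.77. This comparison was added after the values were seen, and it was not called (limma adjusted p = 0.523, unadjusted p = 0.000276). The titles of the CsA set alone name a laboratory, and whether the other sets came from another one was not known here.

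UCA1 was the single member called over time in vehicle cells. Of all genes, 13.7% were called in vehicle cells of the CsA set, 19.8% in those of the Fk and Ra set, 0% in those of the Nnm set (664 at an unadjusted p under 0.05, 1 member among them) and 0.00881% between the CsA and the Fk and Ra sets. With the replicate block 24.1% were called in the CsA set, among them KRT20, KRT7 (0.70, limma adjusted p = 0.0412) and UCA1 (adjusted p = 0.000467). Vehicle values at the later time set the base of each 48 h difference, so those of KRT20 are read from a vehicle level that was itself higher than at the earlier time.

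Over the 48 arrays, each minus the vehicle mean of its set and time, UCA1 and KRT20 had a Pearson r of 0.72. Within the sets r was -0.12 in the CsA set (12 arrays), 0.76 in the Fk and Ra set (18 arrays) and 0.75 in the Nnm set (18 arrays). The points share arrays, vehicles and treatments, and r is given as a description.

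**Figure D3:**
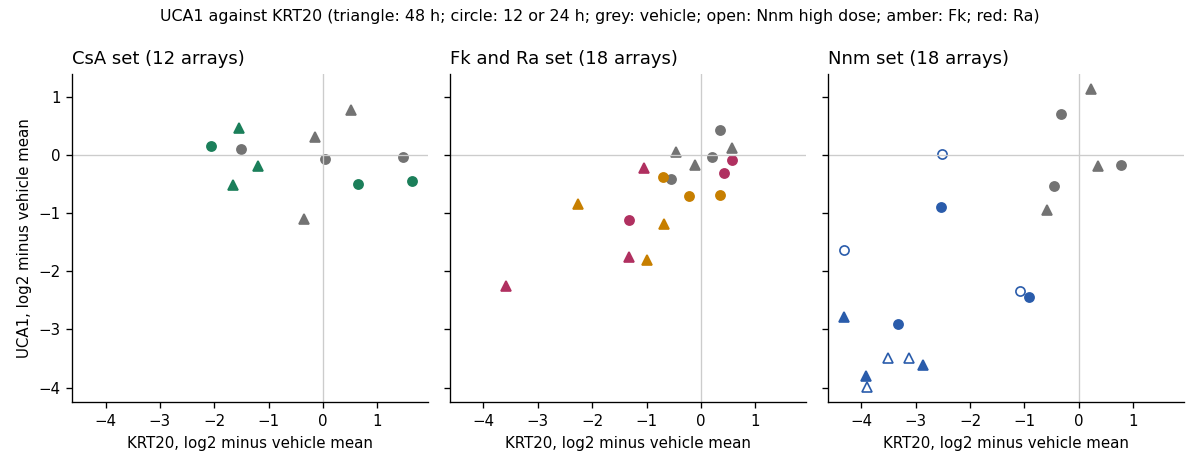
UCA1 (y axis) against KRT20 (x axis) on each array, as log2 value minus the vehicle mean of the same set and time, with 1 panel per set; triangles are 48 h, circles 12 h or 24 h, grey points vehicle and open points the high dose of Nnm. Points of the Nnm set run from near 0 to the lower left, with r = 0.75, while those of the CsA set show no such run, with r = -0.12.

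KRT7 and KRT80, type II keratins, had small differences that were mostly negative and not called without the replicate block. KRT7, a chain of simple ductal epithelia, ran from 5.88 to 8.45 over the arrays, and its group means spanned 1.42 log2 units. In the Nnm set at 24 h, vehicle cells had 7.98, 7.09 and 8.31, low-dose cells 6.89, 7.03 and 7.35, and high-dose cells 7.00, 7.08 and 7.21. Vehicle replicate 2 lay among the treated values. The differences were -0.71 ± 0.35 and -0.70 ± 0.35 (limma adjusted p = 0.215 and 0.148). With the replicate block both were called (limma adjusted p = 0.0484 and 0.0314).

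At 48 h KRT7 had 7.14, 6.95 and 7.71 in vehicle cells and 6.44, 6.95 and 6.74 at the high dose of Nnm (difference -0.56 ± 0.35). After Ra for 48 h it had 7.53, 6.34 and 7.73 against 7.95, 7.85 and 7.68 in vehicle cells. The low value belonged to replicate 2, the array of lowest upper quartile. The difference was -0.63 ± 0.35 with it and -0.20 without it.

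KRT80, a keratin of differentiated epithelia, ran from 6.66 to 9.88, with group means that spanned 2.28 log2 units. In the Nnm set it had 8.59, 8.17 and 8.84 in vehicle cells at 24 h and 7.91, 7.22 and 7.93 at the low dose, with no overlap. At 48 h it had 8.27, 7.83 and 8.43 in vehicle cells and 7.13, 7.13 and 7.60 at the low dose, again with no overlap. The differences were -0.85 ± 0.38 (limma adjusted p = 0.158) and -0.89 ± 0.38 (adjusted p = 0.170), and both were called with the block (adjusted p = 0.0143 and 0.0136).

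At the high dose of Nnm the KRT80 values spread widely. They were 8.66, 7.00 and 8.50 at 24 h and 8.23, 6.66 and 8.12 at 48 h, with replicate 2 low at both times, and they overlapped with vehicle (differences -0.48 and -0.50, each ± 0.38). After 48 h of Fk the values were 9.53, 9.88 and 9.30, and after Ra 8.55, 8.36 and 9.25. Every Fk value was above every Ra value, and the difference was 0.85 ± 0.38 (limma adjusted p = 0.115). Such full separation of Fk from Ra arrays at 48 h was found in 2387 of 11356 genes. Of all genes, 0.00881% were called between Fk and Ra at 12 h and 17.3% at 48 h, and no member was. At 48 h 1721 genes were called higher and 241 lower with Fk. With both arrays of low upper quartile left out these counts were 414 and 354.

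KRT8 and KRT18, the pair of simple epithelia, were bright on all arrays, from 10.32 to 12.39 and from 11.83 to 13.54. Their probe sets are of a class in which some probes can match other transcripts, so related sequences may add to both. Over the 48 arrays, minus vehicle means, the pair had an r of 0.77 (0.74, 0.43 and 0.81 in the CsA, the Fk and Ra and the Nnm set). Without the replicate block neither was called in any treatment.

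KRT8 was above vehicle on every array at 48 h with CsA, Fk and Ra, by 0.56, 0.38 and 0.33, each ± 0.32. Such separation, in either direction, was found in 1618, 1144 and 2528 of 11356 genes. CsA cells had 11.46, 11.53 and 11.30 against 10.74, 11.06 and 10.82 in vehicle cells (limma adjusted p = 0.542). Fk cells had 11.70, 11.38 and 11.26 and Ra cells 11.68, 11.20 and 11.30, against 11.01, 11.03 and 11.15. With centred arrays the Ra difference was 0.30, and without replicate 2 it was 0.43.

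With Nnm the KRT8 means lay below vehicle, by 0.30 to 0.69 log2 units. At the low dose for 48 h the values were 11.13, 10.37 and 11.14 against 11.81, 11.00 and 11.89 in vehicle cells. Same-numbered arrays moved together, replicate 2 being the lowest in both groups. The difference was -0.69 ± 0.32 (limma adjusted p = 0.222) and was called with the block (adjusted p = 0.0158). The 24 h differences of -0.56 at the low and -0.61 at the high dose were called with the block as well (limma adjusted p = 0.0418 and 0.0145).

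KRT18 had 13.12, 12.88 and 13.11 in vehicle cells of the Nnm set at 24 h, 12.80, 12.31 and 12.69 at the low dose and 12.54, 12.28 and 12.40 at the high dose. Neither dose overlapped with vehicle. The high-dose difference was -0.63 ± 0.26 (limma adjusted p = 0.0781) and was called with the block (adjusted p = 0.0128). At 48 h the high-dose values were 13.14, 11.83 and 13.07 against 12.53, 12.16 and 12.76, and the difference was 0.20 ± 0.26.

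KRT19, the small type I keratin of ductal cells, kept group means between 11.54 and 12.48, a span of 0.93 log2 units. After the high dose of Nnm for 24 h it had 11.38, 11.94 and 11.73, all below the vehicle values of 12.38, 12.20 and 12.48. The difference was -0.67 ± 0.33 (limma adjusted p = 0.140), called with the block (adjusted p = 0.0448). At the low dose it had 12.58, 11.85 and 13.00, on both sides of vehicle, and 48 h values of both doses overlapped with vehicle too.

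**Figure D4:**
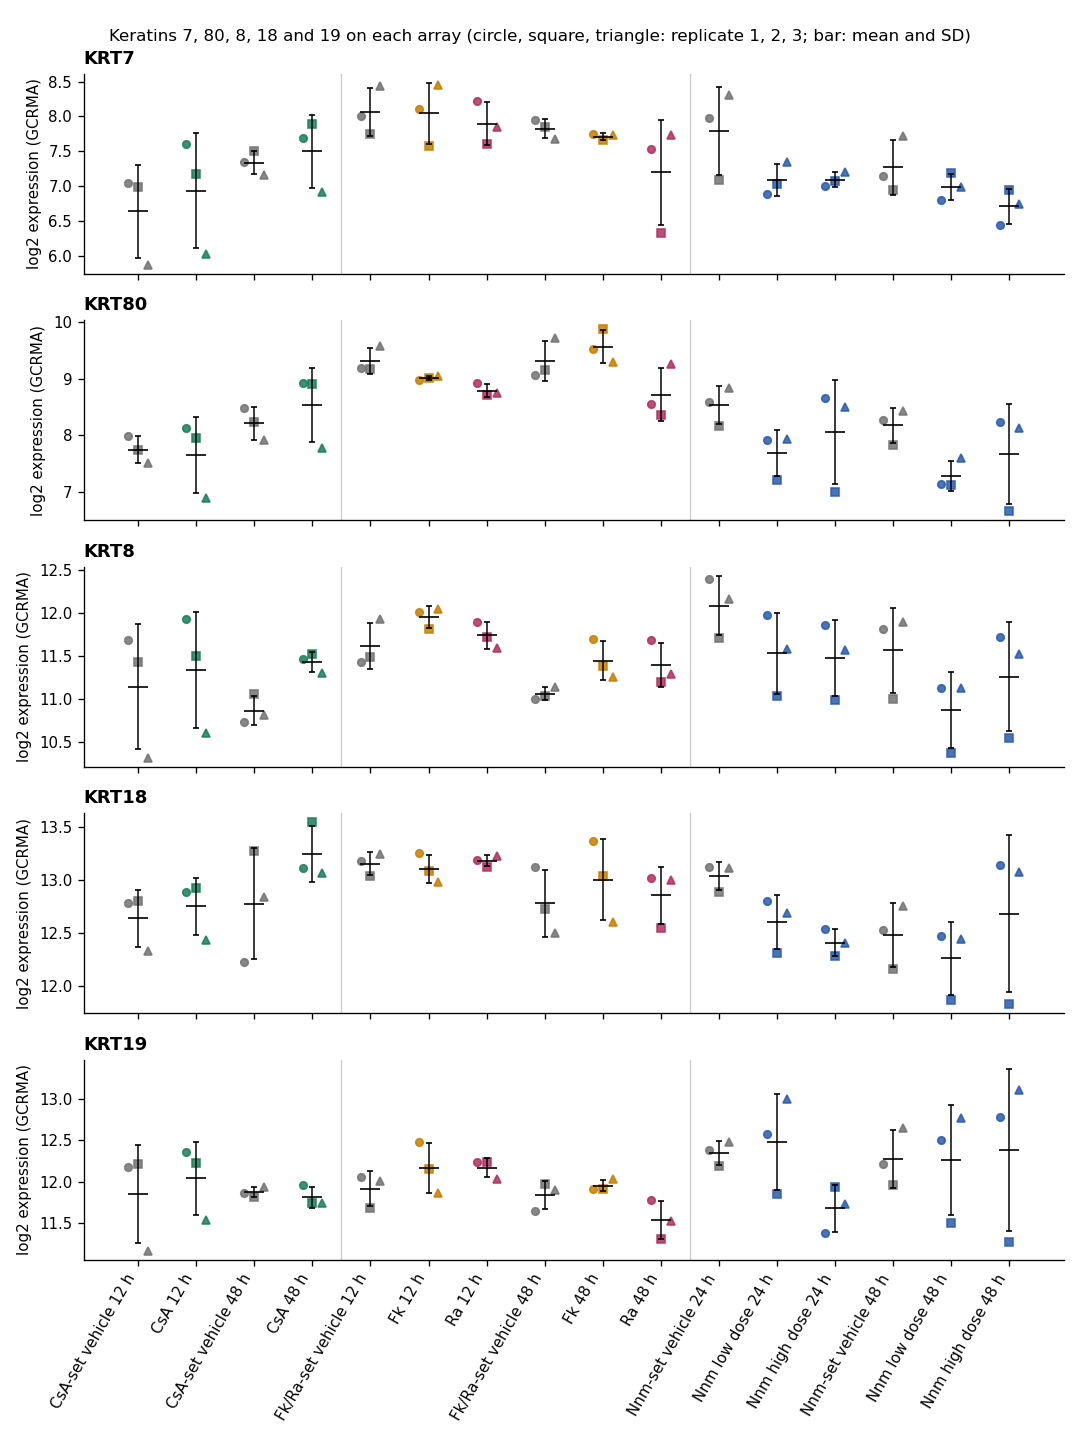
Log2 expression of KRT7, KRT80, KRT8, KRT18 and KRT19 on each of the 48 arrays by group, with replicates 1, 2 and 3 as circle, square and triangle and the mean with SD (n = 3) as a black bar. Axes differ between panels and do not start at 0; the group means spanned 0.93 log2 units for KRT19 and 2.28 for KRT80.

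With the replicate number as a block, the Nnm comparisons called more members and more genes. At the low dose for 24 h 5 members were lower among 18% of genes called, and at the low dose for 48 h 4 members among 13%. At the high dose for 24 h 6 members were lower among 33.7%, and at the high dose for 48 h 2 members among 27.4%. No member was called higher.

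Other keratins were mostly below the filter in these cells. Of 45 further type I and type II keratin genes, 36 had a probe set and 2 passed, KRT10 and KRT15, with 3 calls over the 10 treatments. These were 15% of their 20 pairs of a gene and a treatment, against 7.3% of all such pairs. The 7.3%, here and below, includes Ra at 48 h with replicate 2. KRT10, a keratin of suprabasal skin, fell by 1.02 ± 0.17 after Ra for 48 h (limma adjusted p = 0.000177; centred arrays -1.05), from 11.60 in vehicle cells to 10.58, and kept this call with each array left out. It rose by 0.59 ± 0.17 at the high dose of Nnm for 48 h (limma adjusted p = 0.0158). That call was lost without vehicle replicate 1 or 2 or high-dose replicate 1 or 3 of that comparison (highest adjusted p = 0.127).

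KRT15, a keratin of basal cells, rose by 1.86 ± 0.46 at the high dose of Nnm for 48 h (limma adjusted p = 0.00531). Its vehicle mean of 3.62 lay under log2 4 and its treated values overlapped with vehicle (5.48 ± 1.64, SD, n = 3). The call was lost without high-dose replicate 1 or 3. KRT15 is also a nearest tested neighbour of KRT20 and of KRT19 in the gene order of the chromosome 17 cluster.

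Proteins that anchor keratin filaments to junctions were called about as often as genes in general. Of 23 listed linkers and junction partners, 20 were tested, and 13 of 200 pairs of a gene and a treatment were called (6.5%), 2 higher and 11 lower, against 7.3% of all pairs of a gene and a treatment. Their median difference was -0.11 at the high dose of Nnm for 24 h, where that of all genes was -0.01. After Ra for 48 h it was 0.12, where that of all genes was -0.18. With both arrays of low upper quartile left out, the latter median of all genes was 0.003. The median of the linkers and partners is not given without them. SFN, a 14-3-3 protein of epithelia that can bind phosphorylated keratins, fell by 1.64 ± 0.32 at the high dose for 24 h (limma adjusted p = 0.000534), from 11.71 to 10.07, and kept the call with each array left out. It also fell at 48 h, by 1.18 at the high and by 1.16 at the low dose, calls that were lost without single arrays (high-dose replicate 1 or vehicle replicate 3 for the former, replicate 1 or 3 of either group for the latter).

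ITGB4, the hemidesmosome integrin chain, fell by 1.74 ± 0.55 at the high dose of Nnm for 24 h (limma adjusted p = 0.0207). The call was lost without replicate 1 or 3 of either group. FAM83H, which recruits casein kinase 1 to keratin filaments, fell by 1.38 ± 0.38 in the same comparison (adjusted p = 0.00917), lost without high-dose replicate 1 or vehicle replicate 3. ITGA6, the partner of ITGB4, fell by 0.93 ± 0.29 at the high dose for 48 h (adjusted p = 0.0263), lost without any vehicle replicate or high-dose replicate 1 or 3.

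DSC3, a desmosomal cadherin, rose by 1.05 ± 0.34 at the high dose of Nnm for 48 h (limma adjusted p = 0.0299) from a vehicle mean of 2.96, under log2 4. The call was lost without vehicle replicate 1 or 2 or high-dose replicate 1 or 3. EVPL, envoplakin, rose by 0.93 ± 0.31 after Ra for 48 h (adjusted p = 0.0306; centred arrays 0.90), lost without replicate 1 or 2 of either group. The 3 partners that fell after Ra for 48 h were PKP3 (-0.48, treated mean 3.79, under log2 4), DSC2 (-0.66) and DSG2 (-0.52), named after their values were seen. PKP3 kept its call with each array left out. Without Ra replicate 2, DSC2 and DSG2 were at -0.25 and -0.32 and not called, and each was also lost without vehicle replicate 1, DSG2 further without vehicle replicate 2 or 3 or Ra replicate 3.

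Intermediate filament proteins outside the keratins were called in both directions. Of 15 listed genes 11 were tested, and 15 of 110 pairs were called (13.6%, against 7.3% of all pairs), 7 higher and 8 lower, and LMNA gave 4 of these. LMNA, the gene of lamins A and C of the nuclear lamina, fell in all 4 Nnm comparisons, by 0.88 and 0.96 at the low dose for 24 h and 48 h and by 1.02 and 1.23 at the high dose, each ± 0.19 (limma adjusted p = 0.00475, 0.0023, 0.000399 and 5.63e-05). All 4 calls held with each array left out. With the mean of all passing probe sets of LMNA in place of the brightest, the first 3 were not called (highest adjusted p = 0.193).

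BFSP1, a filament protein of the lens, rose with Nnm, by 1.43 at the low dose for 24 h and by 1.64 and 1.69 at the high dose for 24 h and 48 h, each ± 0.45 (limma adjusted p = 0.0438, 0.00911 and 0.0102). The high-dose calls were lost without high-dose replicate 1 and, at 24 h, vehicle replicate 3 or, at 48 h, high-dose replicate 3. The low-dose call was lost without any of 6 arrays, low-dose replicate 1 or 3, vehicle replicate 1, 2 or 3, or the 12 h vehicle replicate 1 of the Fk and Ra set. NEFL, the light neurofilament chain, fell by 1.87 ± 0.58 at the high dose for 48 h (adjusted p = 0.0241), lost without vehicle replicate 1 or 2 or high-dose replicate 1 or 3.

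After Ra for 48 h NES, nestin, rose by 1.36 ± 0.40 (limma adjusted p = 0.0155; centred arrays 1.33). LMNB1 rose by 1.24 ± 0.34 and LMNB2, the other B-type lamin, by 1.20 ± 0.35 (adjusted p = 0.0108 and 0.0148; centred arrays 1.21 and 1.17). Vehicle replicate 1 decided all 3 calls, which were lost without it. The NES call was also lost without vehicle replicate 2 or Ra replicate 3, and that of LMNB2 without Ra replicate 3. LMNB2 moved the other way at the low dose of Nnm for 24 h, where it fell by 1.13 ± 0.35 (adjusted p = 0.0377), a call lost without vehicle replicate 1 or 3 or any low-dose replicate.

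**Figure D5:**
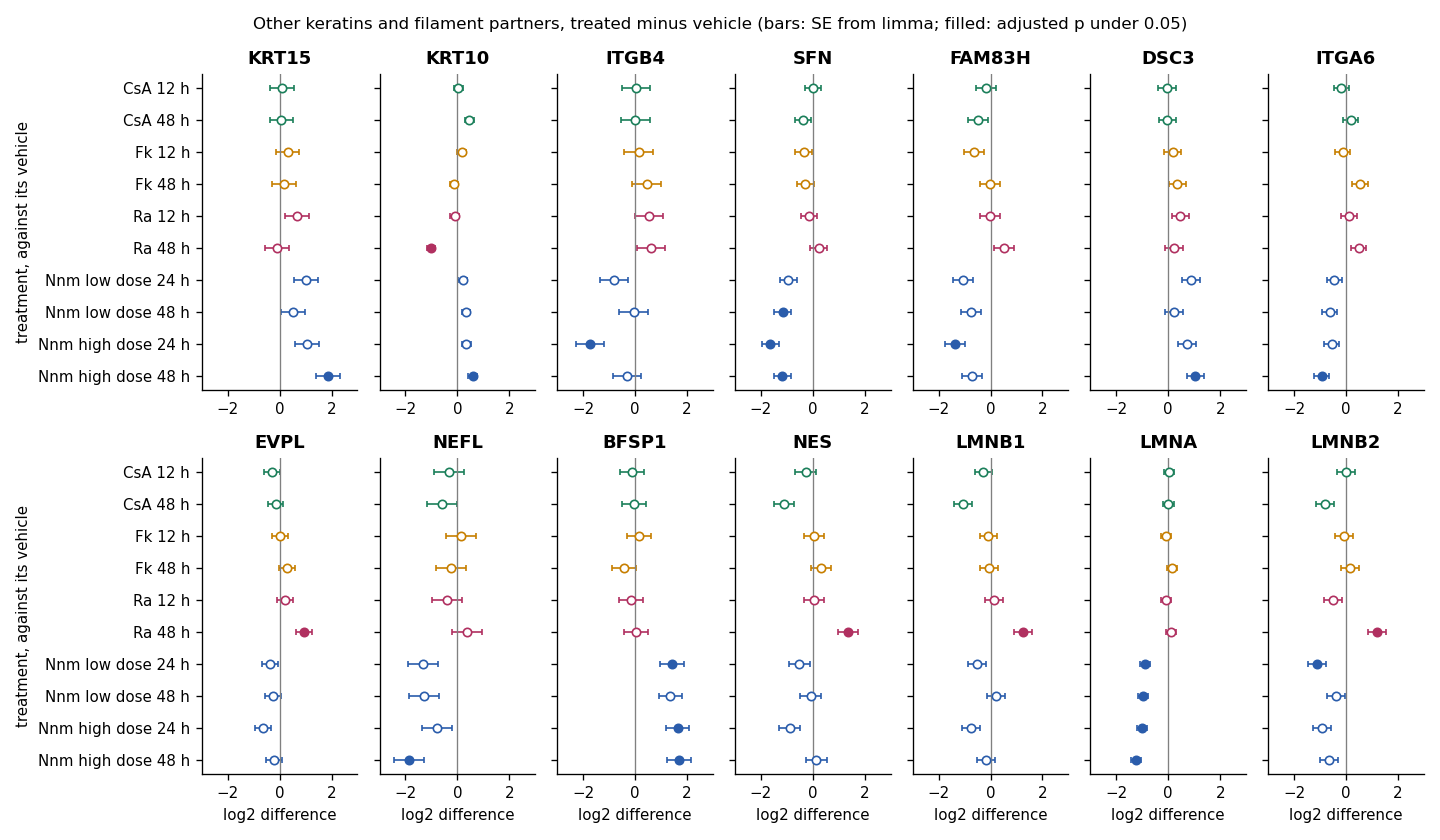
Difference of each treated group from its vehicle (x axis, log2) for the 2 other keratins tested and 12 filament partners chosen as the called genes of largest difference; points are limma estimates over 3 against 3 arrays, bars are SE, and filled points have an adjusted p under 0.05. LMNA is filled in all 4 Nnm comparisons, at -0.88 to -1.23, and KRT10 is filled on opposite sides for Ra at 48 h and the high dose of Nnm at 48 h.

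Epithelial transcription factors gave 2 calls over 90 pairs, 2.22% against 7.3% of all pairs (9 of 19 listed genes were tested). Both were KLF5, a Krüppel-like factor of proliferating epithelium, which fell by 0.75 ± 0.24 at the high dose of Nnm for 48 h (limma adjusted p = 0.031) and by 0.67 ± 0.24 after Ra for 48 h (adjusted p = 0.0499). The first call was lost without any single array of its 6. The second lay at the threshold, was not called with centred arrays and held with 14 of the 48 arrays left out in turn.

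Of 10 genes linked to UCA1 in cancer cells 9 were tested, and 8 of 90 pairs were called (8.89%, against 7.3% of all pairs), 2 higher and 6 lower. SMARCA4, a chromatin remodelling ATPase reported to bind UCA1, fell by 1.05 ± 0.25 at the high dose of Nnm for 48 h (limma adjusted p = 0.00348) and kept the call with each array left out. It also fell by 0.81 at the high dose for 24 h and by 0.82 at the low dose for 48 h. These calls were lost without, for the former, high-dose replicate 1 or 3 or vehicle replicate 3, and, for the latter, any vehicle replicate or low-dose replicate 1 or 3. ETS2, a transcription factor reported to act on the UCA1 promoter, rose by 0.93 ± 0.30 at the high dose for 48 h (adjusted p = 0.0302), lost without vehicle replicate 1 or 2 or high-dose replicate 1 or 3.

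EZH2, a histone methyltransferase, fell by 1.08 ± 0.23 after CsA for 48 h (limma adjusted p = 0.0133) and rose by 0.78 ± 0.23 after Ra for 48 h (adjusted p = 0.015). The CsA call was lost without CsA replicate 2 or 3 or vehicle replicate 1, and the Ra call without vehicle replicate 1 or Ra replicate 3. After Ra for 48 h HK2, hexokinase 2, fell by 0.80 ± 0.28 (adjusted p = 0.0443), lost without vehicle replicate 1 or 2. Without Ra replicate 2 the difference was -0.46 and not called, and with the mean of its probe sets it was -0.17. HIF1A, the oxygen-regulated factor, fell by 0.37 ± 0.12 (adjusted p = 0.033), lost without any vehicle replicate or Ra replicate 2 or 3. UCA1 itself was not called in these CsA and Ra comparisons.

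The genes whose values most resembled those of KRT20 over the 48 arrays, minus vehicle means, were TIPARP (r = 0.88), ZBED10P (0.86) and ZNF114 (0.86). TIPARP, a mono-ADP-ribosyltransferase, kept r at 0.93, 0.73 and 0.91 in the CsA, the Fk and Ra and the Nnm set. It fell by 1.29 ± 0.24 at the low dose of Nnm for 48 h and fell by 1.45 ± 0.24 at the high dose (limma adjusted p = 0.00114 and 0.000126). ZBED10P differed from vehicle by -2.42 and -3.15 in the same comparisons. Those nearest to UCA1 were ATP5F1B, a subunit of mitochondrial ATP synthase (r = 0.86), PEPD, a dipeptidase (0.84), and RBM3, a cold-inducible RNA-binding protein (0.83). Their r in the CsA set was 0.16, 0.46 and -0.12, below their r in the other sets. ATP5F1B fell by 0.92 and 1.01 (± 0.13) at the low and high dose for 48 h. All these genes were picked for their likeness over the same arrays, those of Nnm included. Their falls with Nnm follow in part from that choice and are no separate result.

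Apart from members themselves, no tested gene beside a member was called lower with Nnm. Of 11356 genes, 278 to 1421 were called lower in the single Nnm comparisons. The neighbours are few, so nothing is read from this absence. The neighbours of UCA1 were CYP4F12 and TPM4, and neither was called in a treatment. EIF1, a translation initiation factor beside KRT19, rose in all 4 Nnm comparisons by 0.40 to 0.57 (each ± 0.13, limma adjusted p = 0.00233 to 0.0449) and fell by 0.41 after Ra for 48 h. ATG101, an autophagy factor beside KRT80, fell by 0.92 ± 0.25 after Ra for 48 h. Both Ra differences include replicate 2, the array of lowest upper quartile, and are not given without it.

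Markers of the labelled and of other cell types moved beside some of these results. DPP4, a brush border peptidase, rose by 1.18 ± 0.27 at the low and by 1.00 ± 0.27 at the high dose of Nnm for 48 h (limma adjusted p = 0.00768 and 0.0107), and PECAM1 rose by 0.82 ± 0.21 at the high dose. Group means of PECAM1 ran only from 3.84 to 5.05, close to log2 4, so the size of its rise is uncertain. The other endothelial markers VWF, CDH5 and KDR stayed below the filter. COL1A1, DCN and LUM, the fibroblast markers that passed, were not called with Nnm, and COL1A1 fell by 1.04 ± 0.33 after Ra for 48 h. The COL1A1 difference includes Ra replicate 2 and is not given without it. Among markers that passed, the collecting duct genes SCNN1A and AQP3 had the widest ranges of group means, 4.84 to 9.92 and 3.97 to 7.90. Those of PAX8 ran from 10.22 to 11.47. Differences of SCNN1A, AQP3, PAX8 and GGT1 from vehicle are not given here. The part of these markers in the values of KRT20 and UCA1 was not tested.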

How the data were processed

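The authors deposited log2 expression values of 54675 probe sets on 48 arrays, which per the submitters' processing notes came from GCRMA, its version not given in the sources used here. These values were used without further normalization. Arrays give no counts, and 3 per group limit the precision. Probe sets with 1 symbol in the platform annotation (41091; 41043 had a gene number in the reference table, which changed 0 symbols) were kept above log2 4 on at least 3 arrays (20960), and the probe set of highest mean stood for its gene. A model with 1 mean per group over 16 groups was fitted with limma 3.58.1 (R 4.3.3; lmFit, eBayes), two-sided, Benjamini-Hochberg adjusted over 11356 genes per comparison, and genes were called at 0.05. The script was tested on simulated data.

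Members, lists and tests were chosen with earlier results of these data known. Of each list the called genes of largest difference were named, at most 6. Whether same-numbered arrays pair was checked from deviations from group means. All 18 such pairs of the CsA set (r = 0.24 to 0.93) and all 45 of the Nnm set (0.14 to 0.79) correlated above 0.1, but 19 of 45 in the Fk and Ra set. Alternatives are given in the closing section. Promoter windows and gene positions are from RefSeq on GRCh38.p14.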

Additional observations from a re-analysis of the deposited data

How the results depend on the processing

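The 6 calls of members against vehicle became 19, all lower, with the replicate number as a block in every set, including KRT20 (adjusted p = 0.0139) and UCA1 (adjusted p = 0.00767) after Ra for 48 h, where the numbers were not taken as pairs. The other 7 settings (centred arrays, quantile normalization, no filter, mean of probe sets, arrays of 1 set in the fit, an eBayes trend, both arrays of low upper quartile left out) gave 6 each, and leaving out single arrays 5 to 8. With the arrays of 1 set in the fit the 6 were not the same pairs, since UCA1 at the low dose of Nnm for 24 h was not called (limma adjusted p = 0.0573). The 0 calls between doses, compounds and times became 1 with the arrays of 1 set in the fit, and 0 to 1 with single arrays left out. With the block they became 1 (KRT80, Fk against Ra at 48 h, a set whose numbers were not taken as pairs). The 1 call in vehicle cells over time became 2 with the arrays of 1 set in the fit, 6 with the block (4 higher, 2 lower; in the Fk and Ra set, whose numbers were not taken as pairs, KRT20 with adjusted p = 0.0452, UCA1 with 0.028 and KRT8 with 0.0275), and 0 to 1 with single arrays left out. The 3 calls of other keratins ran from 1 to 4 with single arrays left out, and the 28 calls of filament partners (9 higher, 19 lower) became 46 with the block (16 higher, 30 lower) and 21 to 34 with single arrays left out. The difference of UCA1 between the Fk and Ra set and the CsA set, added after the values were seen, was called with the block (limma adjusted p = 0.0142). It draws on the Fk and Ra set, whose numbers were not taken as pairs. Of the calls of named list genes, those lost with the arrays of 1 set in the fit were KRT15 and DSC3 (Nnm), SMARCA4 (low dose, 48 h), EZH2 (CsA) and EVPL, DSC2, DSG2, LMNB1, LMNB2, HK2, HIF1A and KLF5 (Ra). Lost without the filter were DSC3, EVPL, DSG2, ETS2, HK2, BFSP1 and LMNB2 (low dose, 24 h), SMARCA4 (low dose, 48 h) and KLF5 (Ra). The mean of probe sets lost ETS2, HK2, KLF5 (Ra) and 3 LMNA calls, centred arrays BFSP1 (low dose, 24 h), SMARCA4 (low dose, 48 h) and KLF5 (Ra), quantile normalization HK2, DSC2, DSG2 and KLF5 (Ra), and the arrays of low upper quartile left out HK2, DSC2, DSG2, HIF1A and KLF5 (Ra). The eBayes trend lost KLF5 (Ra). No named difference reversed in any of these settings. Values under log2 4 have little order, which touches UCA1 after Nnm for 48 h and single KRT20 values after Nnm for 24 h and Ra for 48 h. The cause of each change was not tested.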
